A study of Mus musculus with 4 samples.

Results

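Transcription factors of blood stem cell formation were followed in an RNA immunoprecipitation experiment against RUNX1. Their genes are Gata2, Tal1, Lyl1, Lmo2, Ldb1, Fli1, Erg, Etv6, Myb and Mecom, listed by name as factors that act with RUNX1, and all 10 were found among the 55573 gene identifiers of the count table. RNA immunoprecipitation sequencing (RIP-seq) recovers RNA on beads that carry an antibody and counts it by sequencing. There were 2 libraries from beads carrying a Runx1 antibody and 2 from beads carrying IgG, a non-specific antibody that measures background. All 4 came from wild-type (WT) C57BL/6 mouse embryos at embryonic day 10.0, from Cd31+ cells of the caudal part, isolated by fluorescence-activated cell sorting. CD31 (Pecam1) is a surface protein of endothelial cells and of some blood cells, so the sorted cells are a mixture, and the number of embryos behind a library is not given in the sources used here. An input library was not analysed here. Whether the replicates are separate sorts or embryos is not labelled, and p-values therefore describe only how far these libraries differ, which may be technical variation.

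In the embryo, blood stem cells arise from endothelium, and RUNX1 is needed for that step. GATA2, TAL1, LYL1, LMO2, FLI1 and ERG bind many of the same enhancers as RUNX1 in blood progenitors, with LDB1 holding TAL1, LMO2 and GATA proteins together in one complex. ETV6, MYB and MECOM act in the upkeep or expansion of stem and progenitor cells. The RNAs of these factors are what was counted, and the proteins themselves were not measured.

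Gene counts came to 1675488 and 1887301 in the Runx1 antibody libraries and to 3843318 and 2482045 in the IgG libraries, so that a floor of 3 counts stood between 0.781 and 1.79 counts per 1e6 gene counts (CPM). All 11 endothelial marker genes, Pecam1, Cdh5 and Kdr among them, were detected in all libraries. Their summed level was 1558 to 1894 CPM with the Runx1 antibody and 1817 to 1866 CPM with IgG. Of 9 blood cell markers Cd48 had no count and 6 were detected in all libraries, with sums of 291 to 336 CPM with the Runx1 antibody and 282 to 336 CPM with IgG. All 9 mesenchymal markers were also detected throughout, at 1456 to 1477 CPM with the Runx1 antibody and 1257 to 1345 CPM with IgG. Erythroid markers summed to 885 and 912 CPM with the Runx1 antibody and to 517 and 469 CPM with IgG. In the edgeR test described below 0 of the 9 erythroid markers tested were called. Megakaryocyte markers summed to 37.0 and 32.3 CPM with the Runx1 antibody and to 34.9 and 11.3 CPM with IgG. Epithelial markers summed to 215 and 213 CPM with the Runx1 antibody and to 235 and 186 CPM with IgG. Neural markers came to 661 and 525 CPM with the Runx1 antibody and to 444 and 410 CPM with IgG, and macrophage markers to 127 and 214 CPM with the Runx1 antibody and to 91.8 and 91.1 CPM with IgG. Most of the neural sum was Nes (485 and 388 CPM with the Runx1 antibody, 303 and 311 CPM with IgG). The highest macrophage sum held 144 CPM of Csf1r, which stood at 11.9 CPM in the other Runx1 antibody library. Dcx, Sox1 and Neurog2 had lower means with the Runx1 antibody (16.4, 0.795 and 0 CPM) than with IgG (33.7, 6.98 and 2.39 CPM). Of the macrophage markers, Mrc1, Cd68 and Cx3cr1 had lower means with the Runx1 antibody (55.7, 0 and 1.89 CPM) than with IgG (67.5, 2.94 and 2.48 CPM). The other macrophage markers had higher means with the Runx1 antibody. The part of these cells in the results was not tested.

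RUNX proteins bind DNA at the letters TGTGGT, and these letters and their reverse complement ACCACA, which do not overlap each other, were looked for in the transcripts. All 10 transcripts (the longest of each gene in GENCODE M21, build mm10) held at least 1 of the 2 forms. In 4 of them TGTGGT lay in the coding part. In Tal1, the gene with the lowest fold change below, it lay only in the 3′ untranslated part, as it did in Erg, Etv6, Myb and Ldb1. Gata2 and Lmo2 held a copy there as well. The coding stretches of the 4 and the first stretch of Tal1 are shown, with T for U and the motif in capitals. They are shown because the antibody is against a RUNX protein.
Gata2: gagtgtgtcaacTGTGGTgccacagccacc
Lmo2: tccctgctgacaTGTGGTggctgccagcag
Fli1: ggaggctctgtcTGTGGTgagtgacgatca
Mecom: gcttgccccgagTGTGGTaaaacatttgcc
Tal1: gtaatgggacaaTGTGGTcagctactaagg
Counted from the first base of the transcript, the motif starts at base 1484 in Gata2, 537 in Lmo2, 417 in Fli1, 1646 in Mecom and 2868 in Tal1. TGTGGT occurred 3 times each in Tal1 and Lmo2, 2 times each in Gata2, Erg and Myb, once each in Fli1, Etv6, Ldb1 and Mecom, and 0 times in Lyl1. Such short letters are common. Among tested transcripts within 10% of its length, 81.5% held TGTGGT for Tal1, 52.0% for Lmo2 and 87.4% for Mecom. At least 1 of the 2 forms was held by 71.8% of such transcripts for Lmo2, the lowest share, and by 97.6% for Mecom, the highest. A match is a description of the letters and not a binding site.

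None of the 9 factors tested was recovered at a different level with the Runx1 antibody than with IgG by the test across all genes. Of the 10, 9 passed the filter on low counts, and of these 0 were higher (0.306% of all tested genes) and 0 lower (0.339%) (edgeR quasi-likelihood test, two-sided, Benjamini-Hochberg over 12401 genes at 0.05), with 0 at an unadjusted p under 0.05 (14.2% of all tested genes). Among all tested genes 80 were called, which is 0.645%, so that a list of this size would hold few calls or none. With limma-voom 0 members were called, beside 1.79% of all genes. With DESeq2 0 of the 5 members that received an adjusted p were called, the other 4 (Tal1, Lmo2, Erg and Myb) having none. DESeq2 called 590 of all 12401 genes (4.76%), and 6732 of the 12401 had no adjusted p. The share called among genes with an adjusted p is therefore higher than 4.76%. The median log2 fold change of the 9 was -0.20, beside 0.027 for all tested genes. The counts are of RNA recovered on beads from a mixture of cells, so how many cells hold a transcript and how much each holds cannot be told apart. The plot of levels by library shows the 10 genes side by side.

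**Figure D1:**
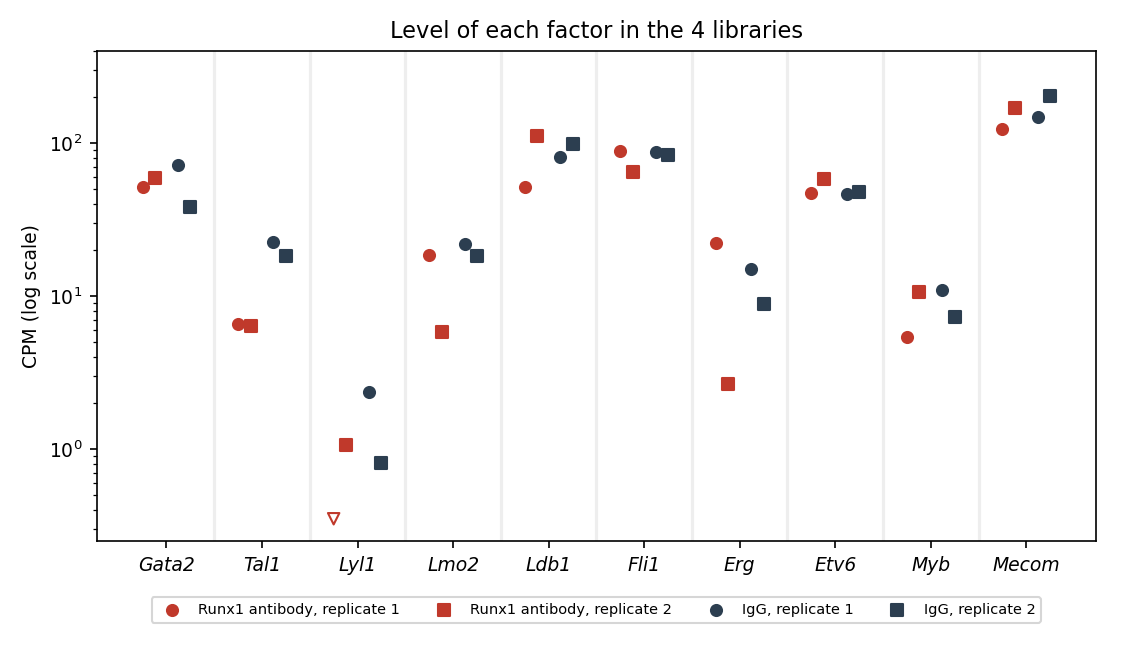
Level of each of the 10 factors in CPM on a log scale, in the Runx1 antibody libraries (red) and the IgG libraries (dark), 1 point per library; the open triangle marks a library with 0 counts and has no place on the scale. Tal1 is the gene whose red points both lie below both dark points, at 6.57 and 6.36 against 22.4 and 18.1 CPM.

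Gata2, a zinc finger factor needed for stem cells to emerge from endothelium, lies on chromosome 6 (88193891 to 88207032, build mm10 here and below). It stood at 51.3 and 58.8 CPM with the Runx1 antibody and at 71.3 and 37.9 CPM with IgG. The Runx1 antibody libraries fell between the IgG libraries, and the fold change in log2 was -0.019 ± 0.45 (± SE throughout; edgeR adjusted p = 0.993). Its 95% interval ran from -1.04 to 1.00, which holds changes of up to about 2-fold in either direction. The interval is not a limit of detection, and larger changes can also be missed by the test. The 2 IgG libraries differed 1.88-fold for Gata2 (95% interval 1.48 to 2.41, which covers counting error only, as do all intervals of counts here). By a rule on level and pattern over the 4 libraries, the genes most like Gata2 were Serp1, Fbxl20 and Ppil2, with root mean square differences of 0.12 to 0.13 on the log2 CPM scale. With 4 libraries such likeness is easily met, and 21 of 12400 genes lay within 0.2 of Gata2.

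Tal1, a basic helix-loop-helix factor that specifies blood, lies on chromosome 4 (115056426 to 115071755). It had 11 and 12 counts in the Runx1 antibody libraries, against 86 and 45 in the IgG libraries, or 6.57 and 6.36 CPM against 22.4 and 18.1 CPM. Both Runx1 antibody libraries were below both IgG libraries, an order that 21.3% of all tested genes shared. In either direction 45.4% of tested genes had groups that did not overlap, and Tal1 was the 1 tested member that did. It did not pass (log2 fold change -1.67 ± 0.74, edgeR adjusted p = 0.357, unadjusted p = 0.0522, 95% interval -3.36 to 0.019). On counts summed over libraries, IgG held 3.21 times as much Tal1 per count sequenced (exact 95% interval 2.05 to 5.24), an interval that leaves out the spread between replicates. The replicates lay close together for Tal1, 1.03-fold apart with the Runx1 antibody and 1.23-fold apart with IgG. Its fold change did not turn direction in any alternative, and without one library at a time it ran from -1.83 to -1.52. Its adjusted p was 0.158 to 0.741 over the alternatives other than spike-in scaling, and it had none in DESeq2. Tal1 has 3030 bases of 3′ untranslated sequence, longer than in 81.6% of the tested coding genes.

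Lyl1, the close relative of Tal1 that can stand in for it in adult stem cells, lies on chromosome 8 (84701457 to 84704715). It had 0 and 2 counts in the Runx1 antibody libraries, against 9 and 2 in the IgG libraries, and it did not pass the filter. The 0 counts of Runx1 antibody replicate 1 allow a level of up to 1.79 CPM, and no difference was detectable at this depth. Exons of Nfix lie on the opposite strand across Lyl1, and Nfix had 4 and 3 counts in the Runx1 antibody libraries, against 12 and 1 in the IgG libraries. The strand setting of the counting is not given in the sources used here, so reads of overlapping genes cannot be told apart.

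Lmo2, an adaptor without DNA contact of its own that joins TAL1 to GATA factors, lies on chromosome 2 (103957986 to 103981878). Its level was 18.5 and 5.83 CPM with the Runx1 antibody and 21.9 and 18.1 CPM with IgG. One Runx1 antibody library was at the level of IgG and the other was below it, and the log2 fold change was -0.75 ± 0.77 (edgeR adjusted p = 0.737). The 2 Runx1 antibody libraries differed 3.17-fold for Lmo2 (exact 95% interval 1.55 to 7.0), against 1.21-fold between the IgG libraries (0.83 to 1.77). Without Runx1 antibody replicate 1 the log2 fold change of Lmo2 was -1.83 and without Runx1 antibody replicate 2 it was -0.17, neither of which passed.

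Ldb1, the protein that bridges distant enhancers through its own pairing, lies on chromosome 19 (46031570 to 46045214). It stood at 51.3 and 110.2 CPM with the Runx1 antibody and at 81.2 and 98.7 CPM with IgG, so that the Runx1 antibody libraries lay on both sides of the IgG libraries. The log2 fold change was -0.18 ± 0.42 (edgeR adjusted p = 0.908). Exons of Pprc1, a coactivator gene, overlap Ldb1 on the opposite strand. Pprc1 stood at 117 and 215 CPM with the Runx1 antibody and at 196 and 209 CPM with IgG. Ldb1 and Pprc1 were both lowest in Runx1 antibody replicate 1 and highest in Runx1 antibody replicate 2, and whether shared reads play a part was not tested.

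None of the ETS factors Fli1, Erg and Etv6 passed the test. Fli1, which drives endothelial and megakaryocyte genes, lies on chromosome 9 (32422204 to 32542861). It stood at 88.3 and 64.1 CPM with the Runx1 antibody and at 87.7 and 83.8 CPM with IgG. The log2 fold change was -0.20 ± 0.34 (edgeR adjusted p = 0.862), and the 95% interval of the fold, 0.51 to 1.49, does not reach a 2-fold rise. Etv6, a repressor that stem cells need to settle in bone marrow, lies on chromosome 6 (134035700 to 134270158). It stood at 47.2 and 57.8 CPM with the Runx1 antibody and at 46.3 and 47.9 CPM with IgG (log2 fold change 0.13 ± 0.41, edgeR adjusted p = 0.939). Gm17089 overlaps Etv6 on the opposite strand and was uneven between libraries, at 8.36 and 0 CPM with the Runx1 antibody and 12.5 and 1.61 CPM with IgG. The IgG libraries differed 1.04-fold for Etv6 and the Runx1 antibody libraries 1.22-fold, both within counting error.

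Erg, the close relative of Fli1 that keeps up stem cell self-renewal, lies on chromosome 16 (95359169 to 95586593). It had 37 and 5 counts in the Runx1 antibody libraries, against 58 and 22 in the IgG libraries, or 22.1 and 2.65 CPM against 15.1 and 8.86 CPM. The highest and the lowest level of Erg both came from the Runx1 antibody. These 2 libraries differed 8.34-fold (exact 95% interval 3.27 to 27.2, which covers the counting of reads only). A log2 difference this large between Runx1 antibody replicates was met by 5.41% of the 3675 tested genes at 10 to 30 CPM. The log2 fold change of Erg was -0.0010 ± 0.97 (edgeR adjusted p = 0.999). It was -2.21 without Runx1 antibody replicate 1 and 0.82 without Runx1 antibody replicate 2, so that its direction rests on single libraries. The ratio of Fli1 counts to Erg counts was 4.00 and 24.2 in the Runx1 antibody libraries, against 5.81 and 9.45 in the IgG libraries.

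**Figure D2:**
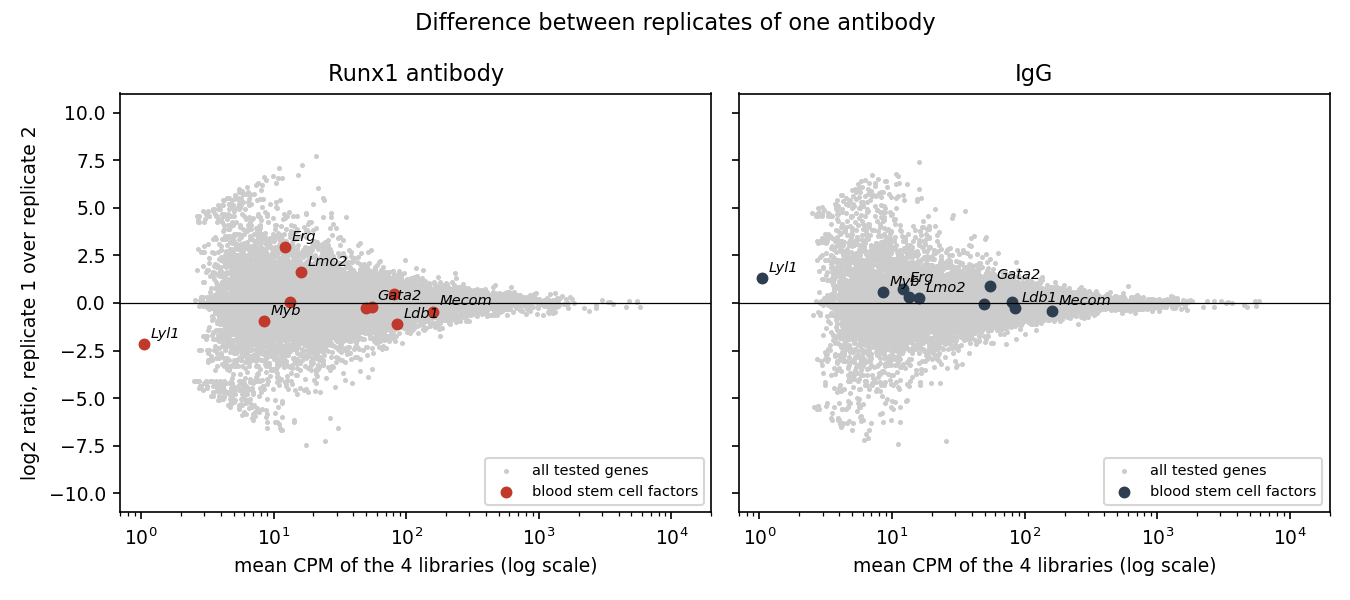
Log2 ratio of replicate 1 over replicate 2 for the Runx1 antibody (left) and IgG (right) against the mean CPM of the 4 libraries, with all tested genes in grey and the 10 factors in colour; 0.5 counts were added before the ratio. Erg and Lmo2 stand at 2.94 and 1.63 in the Runx1 antibody panel and at 0.75 and 0.26 in the IgG panel.

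Myb, a factor of progenitor expansion, lies on chromosome 10 (21124935 to 21160984). It was scarce, with 9 and 20 counts in the Runx1 antibody libraries, against 42 and 18 in the IgG libraries, or 5.37 and 10.6 CPM against 10.9 and 7.25 CPM. The groups overlapped and the log2 fold change was -0.21 ± 0.93 (edgeR adjusted p = 0.960). Its transcripts share a near-identical stretch with the overlapping gene Gm26577, which had 0 counts in all 4 libraries. No such stretch of at least 200 bases at 95% identity was found in another gene for the other 9 factors.

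Mecom, whose EVI1 product supports long-term stem cells, was the factor with the most counts, and lies on chromosome 3 (29951296 to 30548008). It stood at 124 and 170.1 CPM with the Runx1 antibody and at 148 and 201 CPM with IgG. The libraries alternated between the antibodies, and the log2 fold change was -0.27 ± 0.28 (edgeR adjusted p = 0.739). The 95% interval of its fold, 0.53 to 1.29, was the narrowest of the 9 and does not reach a 2-fold change in either direction. The opposite-strand gene Mecomos, which overlaps it, stood at 17.3 and 23.3 CPM with the Runx1 antibody and at 18.0 and 29.4 CPM with IgG.

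**Figure D3:**
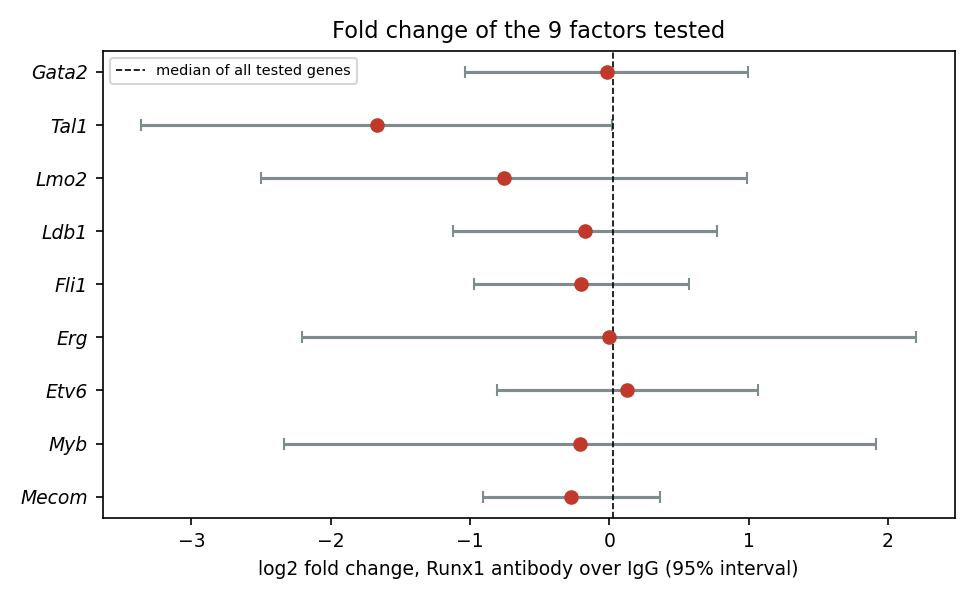
Log2 fold change of the 9 tested factors, Runx1 antibody over IgG, with 95% intervals from the edgeR fit over 4 libraries; the dashed line is the median of all tested genes at 0.027. All 9 intervals include 0, from the narrowest for Mecom (-0.91 to 0.36) to the widest for Erg (-2.20 to 2.20).

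The SE of the fold change was larger for genes of low level. The median SE of the log2 fold change was 1.18 over the 2626 tested genes under 10 CPM, where Myb lies and 0 were called. It was 0.27 over the 1762 genes at 100 to 300 CPM, where Mecom lies and 8 were called (0.454%). The median SE of the log2 fold change was 0.75 over the 3675 tested genes at 10 to 30 CPM, where Tal1, Lmo2 and Erg lie, and 0.45 over the 3719 genes at 30 to 100 CPM, where Gata2, Fli1, Etv6 and Ldb1 lie. In each of the ranges from 10 to 30 and from 30 to 100 CPM 1 gene was called. At 300 CPM and over, where no member lies, 70 of 619 genes were called, which is 11.3%.

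Levels of different genes were compared per transcript length, as TPM, counts per base of the longest transcript scaled to a sum of 1000000 in each library. In that order Mecom (74.1 ± 16.8 TPM with the Runx1 antibody and 95.4 ± 19.0 TPM with IgG, SD, n = 2 each), Ldb1 (74.1 ± 38.3 and 89.4 ± 10.9 TPM) and Fli1 (65.9 ± 14.7 and 80.5 ± 3.82 TPM) led. Gata2 followed with 44.3 ± 4.36 TPM with the Runx1 antibody and 47.8 ± 21.4 TPM with IgG. Lmo2 stood at 20.5 ± 15.03 and 36.6 ± 5.38 TPM, and Etv6 at 26.4 ± 3.83 and 25.7 ± 0.23 TPM. Erg, Tal1 and Myb were lower, at 10.9 ± 12.1, 4.40 ± 0.089 and 6.21 ± 2.89 TPM with the Runx1 antibody and 11.5 ± 4.40, 14.998 ± 2.45 and 7.69 ± 2.31 TPM with IgG. Lyl1 was last, at 0.85 ± 1.20 TPM with the Runx1 antibody and 2.74 ± 1.92 TPM with IgG. Over the 4 libraries most neighbours in this order overlapped, and the steps that did not were those from Etv6 to Erg and from Myb to Lyl1. The 4 most abundant factors kept their places in both antibodies, while Lmo2 and Etv6 changed places, as did members of the group of Erg, Tal1 and Myb. With the median length of the coding transcripts the order was the same, with the gap below Fli1 free of overlap and the one below Etv6 not.

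**Figure D4:**
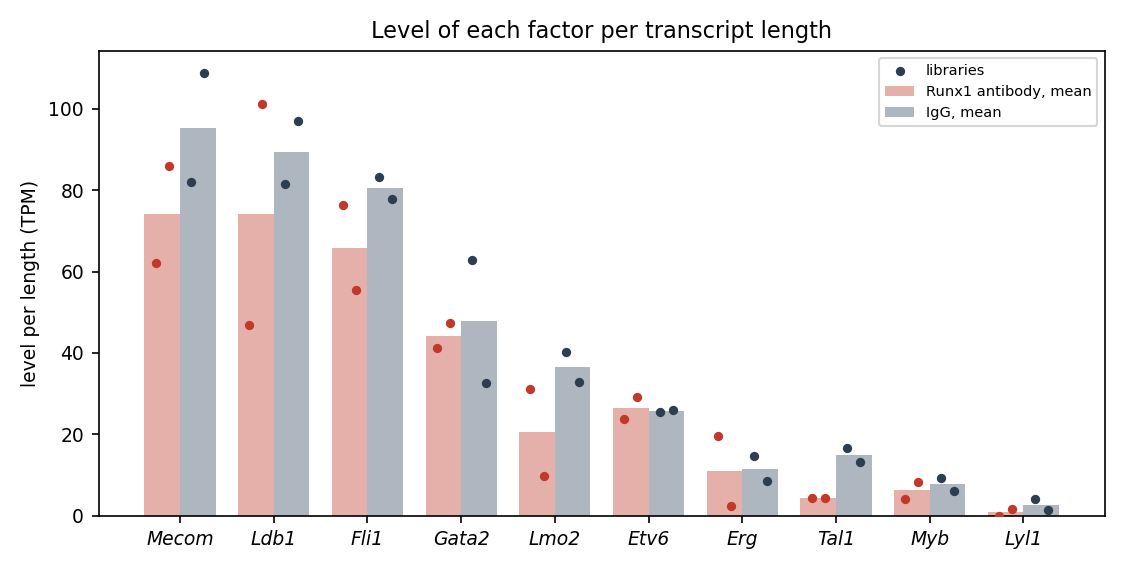
Level per transcript length in TPM for the 10 factors, ordered by their mean over the 4 libraries; bars are means of 2 libraries (Runx1 antibody left, IgG right) and points are the libraries. Mecom, Ldb1, Fli1 and Gata2 lie above 32 TPM in all 4 libraries, and Lyl1 below 5 TPM.

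The sequence features of the 10 factors were set beside those of the tested genes. Their longest transcripts had a median of 3445 bases, beside 3467 in the tested genes, a median GC content of 51.8%, beside 48.7%, and a median 3′ untranslated length of 1539 bases, beside 1291. Lyl1 (62.6% GC), Gata2 (58.2%) and Ldb1 (57.9%) were richer in GC than over 90% of the tested genes, and of these Gata2 and Ldb1 did not pass the test and Lyl1 was not tested.

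Genes that work with the 10 factors were read from 4 lists. Runx1 itself stood at 31.6 and 32.9 CPM with the Runx1 antibody and at 18.2 and 20.1 CPM with IgG, and it did not pass (log2 fold change 0.72 ± 0.57, edgeR adjusted p = 0.647). Of 3 measured genes in the list of RUNX genes and their partner, Cbfb, the partner RUNX proteins bind DNA with, fell (log2 fold change -1.19 ± 0.19, edgeR adjusted p = 0.0432) and the other 2 did not pass. Cbfb stood at 150 and 162 CPM with the Runx1 antibody and at 346 and 351 CPM with IgG. It kept its call without each library in turn. It lost the call with a replicate block, where the fold change in log2 was -1.19 (edgeR adjusted p = 0.133), and with length and GC offsets, at -1.12 (edgeR adjusted p = 0.0843). The median log2 fold change of these 3 genes was -0.047.

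Of the partners of the LMO2 and LDB1 complex 10 of 12 were measured, with 0 higher and 0 lower in edgeR (2 lower at an unadjusted p under 0.05, as were 7.35% of all tested genes, and 1 lower with DESeq2, which called 2.77% of all genes lower). With DESeq2 3 of the 10 had no adjusted p, as had 6732 of all 12401 genes. The median log2 fold change of the list was -0.11. Ssbp3, which shields LDB1 from breakdown, stood at 702 and 770 CPM with the Runx1 antibody and at 982 and 1019 CPM with IgG (log2 fold change -0.47 ± 0.12, edgeR adjusted p = 0.150). Ssbp3 passed with DESeq2 (adjusted p = 0.0114) and, in edgeR, without Runx1 antibody replicate 2 (adjusted p = 0.0239). Tcf4, an E protein that can pair with TAL1, stood at 1127 and 937 CPM with the Runx1 antibody and at 1206 and 1322 CPM with IgG (log2 fold change -0.32 ± 0.13, edgeR adjusted p = 0.299). With length and GC offsets the log2 fold change of Tcf4 was 0.19, and with single libraries left out it ran from -0.49 to -0.22.

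Of other ETS factors 13 of 18 were measured, with 0 higher and 0 lower in edgeR (1 lower at an unadjusted p under 0.05, 1 lower with DESeq2 and 1 with limma-voom, which called 0.968% of all genes lower). With DESeq2 6 of the 13 had no adjusted p. Elk4, a partner of serum response factor, stood at 341 and 388 CPM with the Runx1 antibody and at 581 and 572 CPM with IgG (log2 fold change -0.69 ± 0.16, edgeR adjusted p = 0.102). Elk4 passed with DESeq2 (adjusted p = 0.0027), with limma-voom (adjusted p = 0.0482), and in edgeR with the strict filter of 10 counts in all libraries (adjusted p = 0.0386), with no filter (adjusted p = 0.0096), and without Runx1 antibody replicate 1 (adjusted p = 0.0470) or 2 (adjusted p = 0.0130). Elk3, a related repressor, stood at 144 and 166 CPM with the Runx1 antibody and at 206 CPM in both IgG libraries (-0.44 ± 0.23, edgeR adjusted p = 0.432). The median of this list was -0.42, beside 0.027 for all genes. It was -0.62 without Runx1 antibody replicate 1 and -0.14 without Runx1 antibody replicate 2, beside -0.088 and -0.095 for all genes. Without IgG replicate 1 it was -0.20 and without IgG replicate 2 -0.14, beside 0.089 and 0.069 for all genes. With no filter it was 0.096 over 18 genes, beside -0.031 for all genes.

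Of other blood stem and progenitor factors 23 of 32 were measured, with 0 higher and 0 lower in edgeR (3 lower at an unadjusted p under 0.05, 2 lower with DESeq2 and 0 with limma-voom, beside the shares of all genes given above). With DESeq2 9 of the 23 had no adjusted p, and the median log2 fold change of the list was -0.062. Zfx, a zinc finger factor of stem cell self-renewal, stood at 209 and 117 CPM with the Runx1 antibody and at 373 and 295 CPM with IgG (log2 fold change -1.07 ± 0.28, edgeR adjusted p = 0.152). Zfx passed with DESeq2 (adjusted p = 0.0056), and in edgeR with the strict filter (adjusted p = 0.0466), with no filter (adjusted p = 0.00037), without Runx1 antibody replicate 1 (adjusted p = 0.00037) and without IgG replicate 2 (adjusted p = 0.0213). With length and GC offsets its log2 fold change was -0.62. Stat5b, a signal transducer of cytokine receptors, stood at 23.9 and 26.5 CPM with the Runx1 antibody and at 71.3 and 66.1 CPM with IgG (-1.47 ± 0.43, edgeR adjusted p = 0.183), and it passed with DESeq2 (adjusted p = 0.0444). Scaling to spike-in RNAs, described next, called Cbfb, Ssbp3, Tcf4, Elk4, Elk3, Zfx and Stat5b lower, beside 31.6% of all tested genes.

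**Figure D5:**
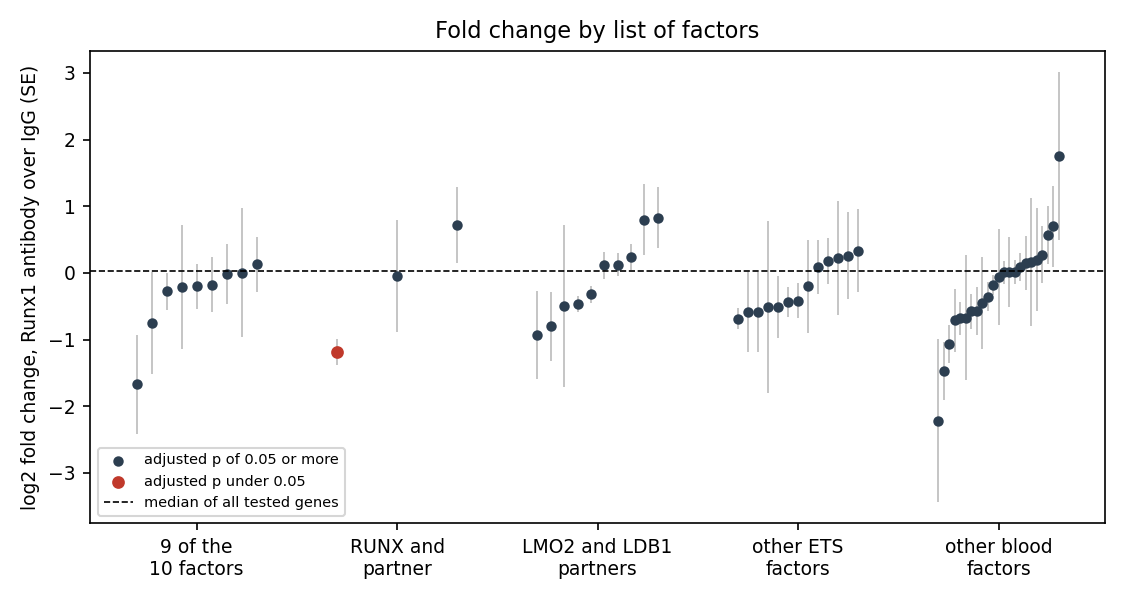
Log2 fold change, Runx1 antibody over IgG, of each tested gene with its SE, for 9 of the 10 factors and 4 lists of related genes, sorted within a list; the dashed line is the median of all tested genes. Cbfb, at -1.19, is the one gene with an adjusted p under 0.05.

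Scaling to spike-in RNAs, synthetic molecules added to a sample, takes the amount added as equal in all libraries, which the labels do not state. It moved the median of all genes to -1.25 and called 31.6% of tested genes lower. Under it 4 members were called lower in edgeR, Tal1 (-2.96 ± 0.85), Mecom (-1.53 ± 0.37), Fli1 (-1.48 ± 0.46) and Ldb1 (-1.45 ± 0.47). Set against that median, Tal1 stood at -1.71, Mecom at -0.27, Fli1 at -0.22 and Ldb1 at -0.20.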

How the data were processed

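RIP-seq libraries of Cd31+ cells, 2 per antibody (Runx1, IgG), were grouped by sample titles. The authors deposited 1 table of raw counts per Ensembl gene, whole numbers with no normalization. The tools named, per the submitters' processing notes, are STAR 2.7.3a, Trimmomatic 0.36 and Salmon 1.1.0, and the build is mm10. Which did the counting, with which annotation and strand setting, is not given in the sources used here. Per the labels' protocols, recovered RNA entered a reverse transcription devised for single cells, with molecular identifiers not mentioned, so intervals and floors cover counting error only.

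Identifiers were matched to the chromosomes of GENCODE M21 (55394 of 55573). The 92 spike-in rows stayed out of library sizes and tests. The main test was edgeR 4.0.16 under R 4.3.3 (quasi-likelihood, TMM, filterByExpr with a minimum count of 10 and a total of 15, all 4 libraries, no block). SEs come from the test statistic, and 95% intervals from its t distribution. Intervals of count ratios are exact binomial. TPM were computed from the longest transcript. Near-identical stretches were sought with blastn 2.17.0. Alternatives were DESeq2 1.42.0, limma-voom (limma 3.58.1), other scalings and filters, a replicate block, single libraries left out, removal of mitochondrial and haemoglobin genes, offsets for length and GC content (splines with 5 degrees of freedom), and a threshold of 0.1. The test was tried on simulated counts first, where it called 0% of 1.5-fold, 13.3% of 2-fold, 27.3% of 3-fold and 51.1% of 4-fold changes. The changed genes were drawn at random over all levels, so rates at the levels of the 10 factors were not measured.

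The 10 factors and the lists of related genes and markers were chosen with earlier results of these data known. Genes named besides the 10 were Runx1, Cbfb, genes past the threshold, the 2 with the smallest p in each list, and the 3 genes nearest to Gata2; overlapping genes were named for their position.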

Additional observations from a re-analysis of the deposited data

Results flagged for a closer look

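Spike-in RNAs, which were not among the genes tested and served as an alternative scaling, made up a larger part of the Runx1 antibody libraries, at 356 and 378 counts per 1e6 gene counts (mean 367), than of the IgG libraries, at 129 and 175 (mean 152). This was singled out as a signal outside the main measurement that stood above its level in the IgG libraries. How much was added, and when, was not found in the labels.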

How the results depend on the processing

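With 0 members called in edgeR, the count stayed at 0 higher under every alternative, and at 0 lower under all but spike-in scaling, which gave 4. The median log2 fold change of the members was -1.48 under spike-in scaling, beside -1.25 for all genes, and -0.34 to -0.089 with single libraries left out. Without Runx1 antibody replicate 1 it was -0.089, beside -0.088 for all genes, and without Runx1 antibody replicate 2 it was -0.17, beside -0.095. Without IgG replicate 1 it was -0.18, beside 0.089, and without IgG replicate 2 it was -0.34, beside 0.069. Counts over all genes (38 higher, 42 lower) were 19 and 3914 under spike-in scaling, 224 and 325 with no low-count filter, 125 and 160 with at least 10 counts in all libraries, 23 and 4 with length and GC offsets, 106 and 124 at a threshold of 0.1, 102 and 120 with limma-voom and 246 and 344 with DESeq2. With single libraries left out they ran from 94 to 248 higher and from 80 to 352 lower. With the replicate number as a block they were 2 and 0. The numbers are not said to pair the libraries, so the block has no support in the labels. Replicate deviations correlated at 0.0044 across the 12401 genes and at 0.038 across the 2381 genes of at least 100 CPM. Related factors called lower (1, Cbfb) were 25 under spike-in scaling, 3 with no filter and 3 with the strict filter. They were 0 with the replicate block, 0 with the offsets, 5 with DESeq2 and 2 with limma-voom. Of all tested genes 0.339% were lower in the main test, 31.6% under spike-in scaling, 2.77% with DESeq2 and 0.968% with limma-voom. The 4 lists held 3, 10, 13 and 23 tested genes in the main test, of 12401 tested in all. They held 4, 12, 18 and 32 of 22242 with no filter, and 3, 9, 12 and 21 of 9367 with the strict filter. Mecom had 84.7 TPM over the 4 libraries, 112 with the median coding transcript length, and 76.7 to 92.2 with single libraries left out.

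Direction turned for some genes. Gata2 stood at 0.0084 with library totals alone and 0.047 with the replicate block (-0.41 to 0.50 with single libraries left out). Erg stood at 0.00092 with DESeq2 size factors, 0.034 with library totals alone, 0.00050 without mitochondrial and haemoglobin genes and 0.0049 with DESeq2 (-2.21 to 0.82). Myb ran from -0.81 to 0.16, Ldb1 from -0.86 to 0.24 and Etv6 from -0.052 to 0.24 with single libraries left out. Under spike-in scaling Etv6 stood at -1.15 and Runx1 at -0.55. Tcf4 stood at 0.19 with the offsets. The cause was not tested. The strict filter left 7 members (Erg, Myb and Lyl1 fell out), with Tal1 at an unadjusted edgeR p of 0.0149 (adjusted p = 0.158), and Lyl1 was tested only without a filter.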
